A study of Mus musculus with 2 samples.

Results

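Long intergenic noncoding RNAs (lincRNAs) are capped and usually polyadenylated transcripts that encode no long protein and lie, for the most part, between protein-coding genes. Of 46511 gene rows measured in sorted mouse effector regulatory T cells, 3495 carried the gene type lincRNA, and 152 of these had a mean of at least 2 FPKM over both libraries and are described here. FPKM, a fragment count divided by transcript length and library depth, was computed by the authors. Rows for Gas5 and for symbols starting with Snhg, which are small nucleolar RNA host genes, were left out; this removed Snhg6, Snhg12 and Snhg20, 3 rows in all. The mean of both libraries chose the 152 rows, so their levels are a description. Of the lincRNA rows under the threshold, 2319 were listed at 0 in both libraries and 72 lay between 1 and 2 FPKM. In 5 of the 152 the heterozygous library and in 8 the null library was under 2 FPKM, so these rows passed through the higher library. Just inside the threshold were Gm26882 (mean 2.01 FPKM), A430046D13Rik (2.05 FPKM) and Gm26530 (2.10 FPKM), and just outside it 9430098F02Rik (1.999 FPKM), AI838599 (1.97 FPKM) and Gm26869 (1.97 FPKM).

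Poly(A) RNA was sequenced in 1 library per genotype, Nrn1+/- (the heterozygous library below) and Nrn1-/- (the null library). Both came from C57BL/6 mice that also carried the Foxp3DTRgfp allele, in which the Foxp3 gene drives a toxin receptor and green fluorescent protein. Cells were sorted as CD4+, CD25+, CD62Llow, CD44high and Foxp3gfp+, the surface phenotype of activated regulatory T cells. The control library is titled wild type, but its label for genotype reads Nrn1+/-, and it is treated here as heterozygous. The number of mice per library, their age and the deleted part of Nrn1 are not given in the labels used here. With 1 library per genotype there was no spread between replicates to compare a difference with, no test was possible, and no difference below has a replicate check. Ratios quoted as folds are FPKM ratios without a pseudocount, while log2 ratios and the 1.5-fold and 2-fold thresholds use log2((Nrn1-/- + 1)/(Nrn1+/- + 1)), which understates differences of low rows.

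Nrn1, which encodes the surface protein neuritin, stood at 66.5 FPKM in the heterozygous library and 4.62 FPKM in the null library. All 7 regulatory T cell markers were well expressed in both libraries (72.8 to 608 FPKM and 54.4 to 564 FPKM), and all 7 were lower in the null library, with sums of 2370 and 2019 FPKM. Markers of other cells were low: B cell markers summed to 5.64 and 7.27 FPKM, with 5 of 5 higher in the null library, CD8 T cell markers to 4.92 and 3.93 FPKM, NK markers to 4.92 and 4.72 FPKM and myeloid markers to 0.900 and 0.825 FPKM, while erythroid markers reached at most 0.0688 FPKM. Over all rows of at least 2 FPKM the median log2 ratio was 0.03 (1.02-fold).

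A lincRNA can act in several ways. Some build nuclear bodies or coat chromosomes, some are the precursors from which microRNAs are cut, some bind or degrade microRNAs in the cytoplasm, and for others the act of transcription affects the gene next door while the RNA itself is dispensable. Many start close to the promoter of a coding gene and run in the opposite direction. In T cells the best studied examples are hosts of microRNAs such as miR-155, which sustains the fitness of regulatory T cells, and the miR-17 to miR-92 cluster, which supports lymphocyte growth and survival.

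Sequences are printed for the rows whose known function lies in a short stretch of RNA. The first set is from the RNA end that sets Malat1 and Neat1 apart from ordinary polyadenylated transcripts. There a U-rich motif and an A-rich tract encoded in the gene are parts of a triple helix. The helix protects an end made without a poly(A) tail. Only these parts are marked, and the printed stretches may not hold the whole helix. Below, the capitals mark this U-rich motif and the A-rich tract in the GENCODE M21 transcripts (GRCm38, minus strand, chr19:5795978-5796029 for Malat1 and chr19:5824708-5824762 for Neat1).
Malat1: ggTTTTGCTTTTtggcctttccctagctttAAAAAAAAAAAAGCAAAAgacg
Neat1: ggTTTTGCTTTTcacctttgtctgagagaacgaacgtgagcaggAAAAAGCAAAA
Of 55450 annotated genes, 284 (0.512%) held TTTTGCTTTT and 121 (0.218%) held AAAAAGCAAAA in the last 400 bases of a transcript, on the transcribed strand only. The 2 genes in which the A-rich letters followed the U-rich letters within 60 bases were Malat1 and Neat1, the genes the letters were taken from. The annotated Neat1 transcript ended with the tract, while that of Malat1 ran 292 bases past it, where a tRNA-like RNA is cut off.

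The second set is the microRNAs encoded by the host lincRNAs, as RefSeq lists them on GRCm38.p6, with bases 2 to 8, the seed that pairs with targets, in capitals. They lie in Mir142hg on chromosome 11, in Gm26667, which GENCODE M21 names Mir155hg, on chromosome 16, in Mir17hg on chromosome 14 and in E130102H24Rik on chromosome 4.
mmu-miR-142a-5p: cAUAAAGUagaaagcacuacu
mmu-miR-142a-3p: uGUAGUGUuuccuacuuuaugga
mmu-miR-155-5p: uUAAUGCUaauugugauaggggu
mmu-miR-17-5p: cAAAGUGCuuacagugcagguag
mmu-miR-20a-5p: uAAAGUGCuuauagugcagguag
mmu-miR-18a-5p: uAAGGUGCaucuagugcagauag
mmu-miR-19a-3p: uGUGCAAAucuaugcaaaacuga
mmu-miR-19b-3p: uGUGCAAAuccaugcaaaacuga
mmu-miR-92a-3p: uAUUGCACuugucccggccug
mmu-miR-101a-3p: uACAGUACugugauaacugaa
Within Mir17hg, miR-17-5p and miR-20a-5p share the seed AAAGUGC and miR-19a-3p and miR-19b-3p share GUGCAAA, so 1 host transcript carries repeated seeds. The libraries measured the host transcripts and not these mature microRNAs.

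The third set is a site in 1700020I14Rik, the mouse gene of the RNA also called Oip5os1 or Cyrano, which pairs with miR-7 along nearly its whole length and triggers its decay. Capitals in the site (GRCm38, plus strand, chr2:119602137-119602161) mark the 13 bases that pair with the 3′ part of miR-7a and the 8 that pair with its 5′ end, and capitals in the microRNA mark its seed.
1700020I14Rik: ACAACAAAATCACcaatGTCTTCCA
mmu-miR-7a-5p: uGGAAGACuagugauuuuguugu

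Most expressed lincRNAs were lower in the null library. Of the 152 rows 112 (73.7%) were lower and 40 higher, against 46.4% lower and 53.6% higher over all 11124 rows of at least 2 FPKM. Their median log2 ratio was -0.24 (1.18-fold lower; quartiles -0.48 and 0.03), against 0.03 over all rows and 0.04 over the 9977 protein-coding rows. With both libraries scaled to sum to 1000000 FPKM, 134 of the 152 (88.2%) and 75.4% of all rows were lower. The lincRNAs then had a median of -0.50, and the median of all rows moved from 0.03 to -0.24. Other scalings moved less: with upper-quartile scaling and with equal protein-coding sums 119 (78.3%) were lower, where 60.6% and 60.2% of all rows were. The median of the lincRNAs differed from that of all rows by -0.25 to -0.275 as reported and under the 4 other scalings. In bulk RNA a smaller share of cells that express a transcript and less of it per cell cannot be told apart, and the regulatory T cell markers were lower as well; their part in this result was not tested.

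Beyond 1.5-fold, 25 lincRNAs (16.4%) were lower, where 5.1% of all rows and 3.6% of protein-coding rows were. So were 11.6% of antisense rows, 14.7% of processed transcripts, 12.8% of processed pseudogenes and 21.4% of rows awaiting experimental support. Another 8 lincRNAs (5.26%) were at least 1.5-fold higher, where 7.63% of all rows and 7.07% of protein-coding rows were. The remaining 119 lay within 1.5-fold. At 2-fold, 2 were lower, where 1.02% of all rows and 0.221% of protein-coding rows were, and 2 were higher, where 1.96% and 1.2% were. At a sum of 1000000 FPKM these counts were 63 lower and 3 higher at 1.5-fold, where 17.3% and 3.16% of all rows were, and 16 lower and 1 higher at 2-fold, where 2.85% and 1.12% were. As deposited, the 2 lower ones at 2-fold were Gm26917 and Gm19705, and the 2 higher ones 2810429I04Rik and Gm28942.

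**Figure D1:**
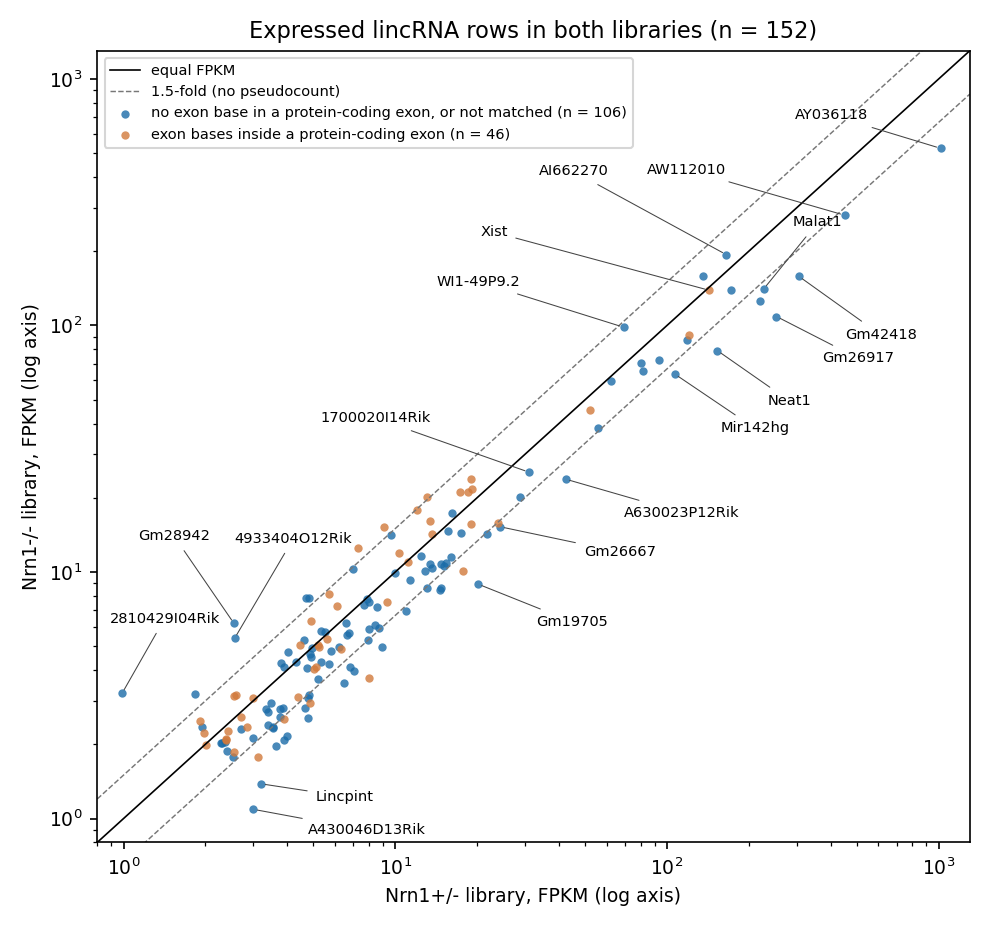
Level of each of the 152 lincRNA rows in the heterozygous library (x axis, FPKM, log scale) against the null library (y axis, FPKM, log scale). Each point is 1 row, and colour marks whether the row has exon bases inside an exon of another protein-coding gene. The dashed lines mark FPKM ratios of 1.5. Of the points, 112 lie below the line of equality, among them Neat1 at 153 and 79.0 FPKM.

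The levels spanned 3 orders of magnitude. The lowest value in the heterozygous library was 0.987 FPKM, the median 6.62 FPKM and the highest 1015 FPKM, and in the null library these were 1.09, 5.83 and 523 FPKM. No row was listed at 0 in either library. On average 13 rows reached 100 FPKM and 61 stayed under 5 FPKM. The sum over all 152 rows was 5142 FPKM in the heterozygous library and 3664 FPKM in the null library. The 5 highest rows made up 43.8% and 35.9% of these sums.

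By level, the 26 lincRNAs of at least 20 FPKM had a median log2 ratio of -0.38, with 21 lower and 9 at least 1.5-fold lower. At that level 2.85% of protein-coding rows were at least 1.5-fold lower. Among the 9 are AY036118, Gm42418 and Gm26917, which lie at a ribosomal RNA repeat, and Gm29562, which shares 87.2% of its sequence with other genes. The median of this level without these rows was not computed. The 65 rows of 5 to 20 FPKM had a median of -0.23 and the 61 rows of 2 to 5 FPKM one of -0.19. Protein-coding rows of the same levels had medians of 0.10, -0.01 and -0.04, so the gap was widest among the most abundant rows, with the repeat rows included. Below the threshold, 49 of the 72 lincRNA rows of 1 to 2 FPKM were lower (median -0.17), as were 90 of the 134 rows of 0.5 to 1 FPKM (median -0.14).

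**Figure D2:**
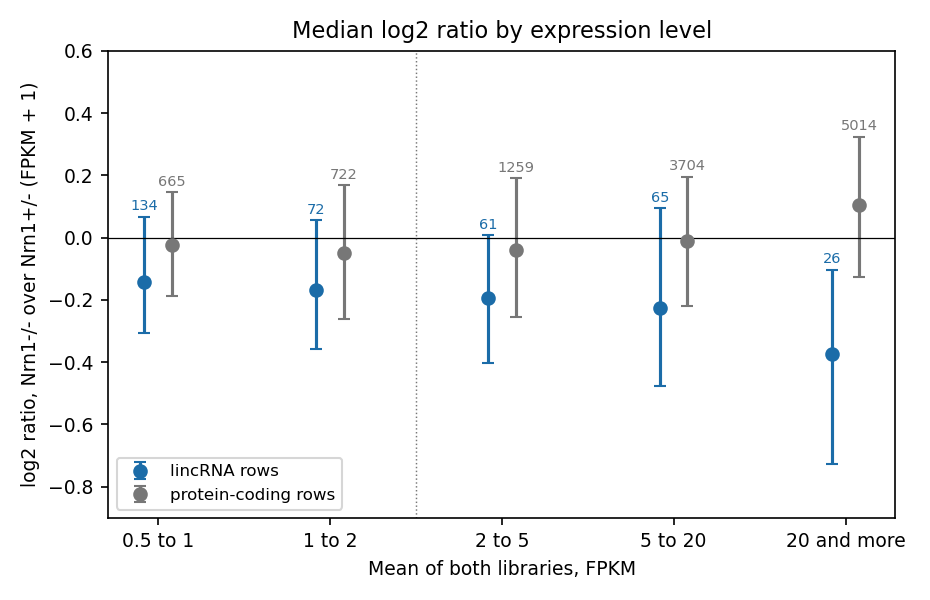
Median log2 ratio (y axis; Nrn1-/- over Nrn1+/-, FPKM + 1) of lincRNA and protein-coding rows in bins of mean level (x axis, FPKM); bars span the quartiles over rows, numbers give rows per bin, and the dotted line marks the 2 FPKM threshold. The lincRNA medians run from -0.14 in the lowest bin to -0.38 in the highest, and the protein-coding medians from -0.03 to 0.10.

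Not every row reports an independent transcript. Of the 152 identifiers 147 were found in GENCODE M21, where 122 are still typed lincRNA and 25 carry another type, such as antisense or bidirectional promoter RNA. Fam169b and Kantr are typed protein-coding there. Against exons of other protein-coding genes on either strand, 101 of the 147 had no base inside one and 46 had some. A row's own exons were not counted, so Fam169b and Kantr are among the 101, called rows with no coding-exon base below. Sequence sharing was measured as the percentage of a row's 31-base words that occur in other annotated genes, on either strand: 45 rows shared at least 50% of them, 102 shared less, and 19 of those shared none. The library kit named in the labels does not mark strand in its standard form, so fragments of a coding exon and of a lincRNA that covers it cannot be told apart. The 101 rows with no coding-exon base had a median log2 ratio of -0.31, with 82 lower, 21 at least 1.5-fold lower and 5 at least 1.5-fold higher. The 46 rows with coding-exon bases had a median of -0.04, near that of coding genes, with 26 lower, 2 at least 1.5-fold lower and 3 at least 1.5-fold higher. Both splits were chosen after the values were seen.

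**Figure D3:**
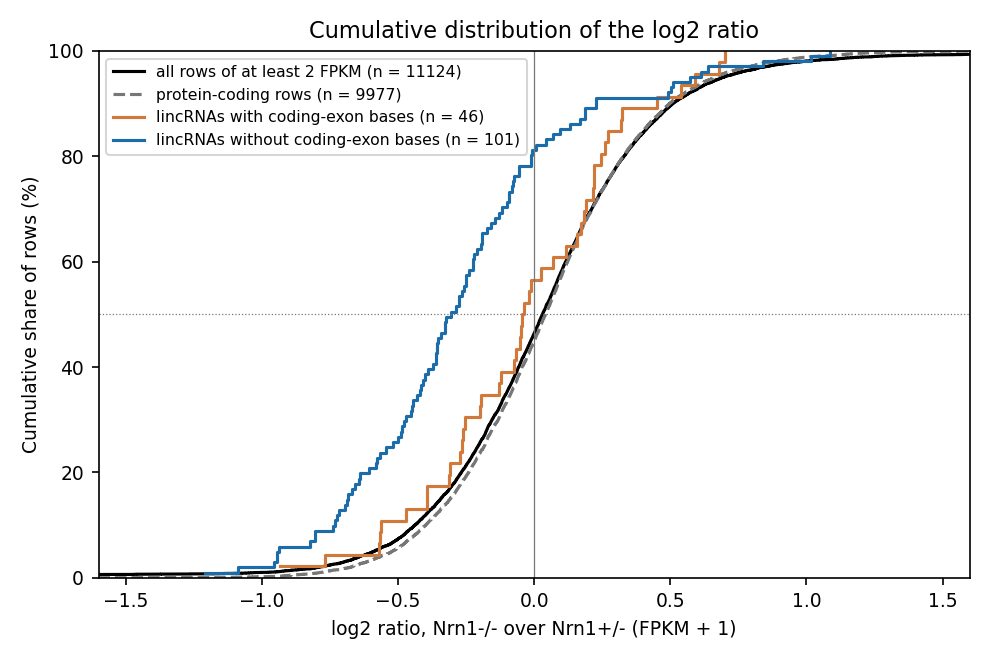
Cumulative share of rows (y axis, percent) by log2 ratio (x axis, Nrn1-/- over Nrn1+/-, FPKM + 1). Curves show all rows of at least 2 FPKM, protein-coding rows, and lincRNAs with and without bases in an exon of another protein-coding gene. The curve of the 101 lincRNAs without such bases crosses 50% at -0.31, and that of the 46 with them at -0.04, close to the curve of coding rows.

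The nuclear scaffold RNAs stood among the most abundant members. Malat1, an RNA of nuclear speckles (chr19:5795690-5802672), was at 227 FPKM in the heterozygous library and 141 FPKM in the null library, 1.61-fold lower (log2 ratio -0.69). Neat1, the scaffold of paraspeckles and its neighbour on the same chromosome (chr19:5824708-5845478), was at 153 and 79.0 FPKM, 1.94-fold lower (log2 ratio -0.95). These are the genes whose 3′ ends are printed above, and both were lower in the null library by more than 1.5-fold. Neat1 also has a short, polyadenylated isoform, and libraries were made from RNA bound to oligo-dT; which isoform its FPKM come from was not tested. Of the list of 13 nuclear and chromatin RNAs, written with earlier results of these data known, 5 were members, with a median of -0.12. Of these 4 were lower, where 73.7% of all 152 members and 46.4% of all rows were. Beyond 1.5-fold 2 were lower, where 16.4% of the members and 5.1% of all rows were. Others of that list were not members: Tug1 was at 44.2 and 32.6 FPKM and Firre at 9.42 and 11.6 FPKM, both filed as processed transcripts, while Hotair was listed at 0 and Meg3 stayed under 0.05 FPKM in both libraries.

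The X inactivation centre was nearly level. Xist, the RNA that coats the inactive X chromosome of female cells, was at 143 FPKM in the heterozygous library and 139 FPKM in the null library (log2 ratio -0.04). The Y-linked genes Ddx3y, Eif2s3y, Kdm5d and Uty were at 0.0926 FPKM or less in both libraries. Jpx, an activator of Xist, was at 2.29 and 2.03 FPKM, and Ftx, a further RNA of the centre, at 3.81 and 4.26 FPKM. None of the 3 members differed by 1.5-fold, and Tsix, the antisense partner of Xist, was under 0.05 FPKM in both libraries. Of all 6 X-linked members 4 were lower, where 73.7% of all 152 members and 46.4% of all rows were. The largest ratio was that of Gm28268 at 4.64 and 2.81 FPKM.

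The microRNA hosts were lower with 1 exception. Mir142hg (chr11:87755577-87757270), which carries the blood-cell microRNA miR-142, was at 107 FPKM in the heterozygous library and 63.5 FPKM in the null library, 1.68-fold lower. Gm26667 (Mir155hg, chr16:84703167-84715245), the precursor of miR-155, was at 24.3 and 15.2 FPKM, 1.597-fold lower. E130102H24Rik, which holds Mir101a, was at 7.05 and 3.97 FPKM, 1.78-fold lower. These 3 hosts passed 1.5-fold, and the printed miR-142a, miR-155 and miR-101a sequences come from them.

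Mir17hg (chr14:115042879-115046727), the transcript of the miR-17 to miR-92 cluster, was at 13.7 and 10.4 FPKM, 1.31-fold lower (95% counting interval 1.227 to 1.403, from an estimated 2385 and 1385 fragments). Gm26532 with Mir24-2 was at 7.93 and 5.32 FPKM and 2900076A07Rik with Mir1839 at 8.04 and 5.90 FPKM. Gm10505 with Mir7216 was at 3.33 and 2.79 FPKM. Ftx, which holds Mir374b and Mir421, was the host that was higher (log2 ratio 0.13), and at a sum of 1000000 FPKM it was lower too (-0.11). In all, 7 of 8 members that contain a microRNA gene on their strand were lower, where 73.7% of all 152 members and 46.4% of all rows were. Beyond 1.5-fold 3 of the 8 were lower, where 16.4% of the members and 5.1% of all rows were. The median of the 8 was -0.445. From the list of 11 known hosts 6 were members, 5 of them lower, and Mir22hg (12.4 and 7.30 FPKM) and Dleu2 (4.99 and 3.70 FPKM), hosts of another gene type, were lower as well.

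AW112010, an RNA induced in activated immune cells, was the most abundant member after AY036118. It stood at 450 FPKM in the heterozygous library and 280 FPKM in the null library, 1.61-fold lower (chr19:11047612-11055808, log2 ratio -0.68). It shared none of its 31-base words with another gene, and its nearest coding gene, Ms4a8a, was at 0.0840 FPKM and 0 FPKM. AI662270, which lies near Slfn3, was at 165 and 194 FPKM, higher as deposited (log2 ratio 0.23) and lower at a sum of 1000000 FPKM (-0.06), and Slfn3 was at 7.47 and 11.1 FPKM. No RNA of the list of T cell and myeloid lincRNAs was a member: Gm14005, also called Morrbid, was at 26.2 and 31.6 FPKM as a processed transcript, and Ppp1r3fos, also called Flicr, at 7.22 and 5.41 FPKM as an antisense RNA.

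The 3 members tied to the p53 response were lower, as were 73.7% of all 152 members and 46.4% of all rows. Lincpint, a p53-induced RNA (M21 symbol Lncpint), was at 3.21 FPKM in the heterozygous library and 1.38 FPKM in the null library, 2.32-fold lower without a pseudocount (log2 ratio -0.82). It passed the 2 FPKM threshold only through the heterozygous library, where it was higher. Pvt1, the neighbour of the Myc oncogene, was at 15.7 and 14.6 FPKM, while Myc itself was at 152 and 189 FPKM. Neat1 was the third. Beyond 1.5-fold 2 of the 3 were lower, where 16.4% of the members and 5.1% of all rows were. 2900097C17Rik, the gene of Norad, an RNA that sequesters Pumilio proteins, was no member by type and went the other way, at 29.3 and 36.9 FPKM.

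The 4 member rows of the cytoplasmic regulators stayed within 1.5-fold on the log2 scale, while Crnde, under the threshold at 0.205 and 1.06 FPKM, did not (log2 ratio 0.78). 1700020I14Rik (Oip5os1), which carries the miR-7 site printed above, was at 31.02 FPKM in the heterozygous library and 25.4 FPKM in the null library, and its neighbour Oip5 at 5.31 and 10.7 FPKM. Epb4.1l4aos was at 81.8 and 65.2 FPKM. Dancr was filed in 2 rows. A retired identifier was at 16.2 and 17.4 FPKM and turned lower under 3 of the other scalings. A row with the symbol Snora26, which M21 names Dancr, was at 1.83 and 3.21 FPKM and passed the 2 FPKM threshold only through the null library. Rows that contain a small nucleolar RNA gene went both ways: Epb4.1l4aos was lower, while the Snora26 row and 2700038G22Rik, which holds Snord93 and was at 6.98 and 10.2 FPKM, were higher. Away from these lists, 1190002F15Rik (Lockd), a transcript from an enhancer next to the cell-cycle inhibitor gene Cdkn1b, was at 12.4 and 11.6 FPKM, whereas Cdkn1b was at 66.2 and 35.0 FPKM.

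**Figure D4:**
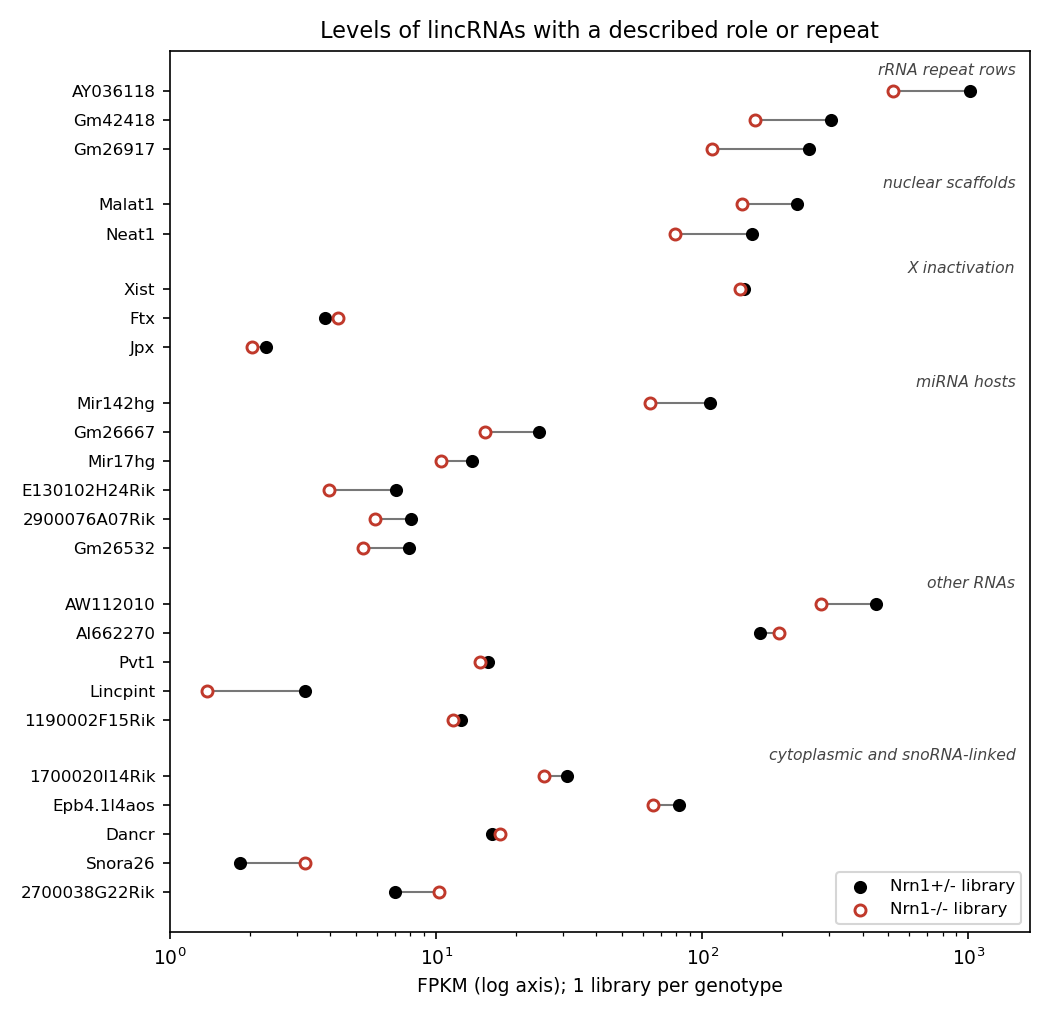
FPKM (x axis, log scale) of 24 members with a described role or repeat in the heterozygous library (filled) and the null library (open), 1 library per genotype, grouped by role. The ribosomal RNA repeat rows, Malat1, Neat1, AW112010 and the microRNA hosts shown sit to the left in the null library, while Xist, Pvt1 and Lockd nearly coincide.

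Of the most abundant rows, 3 lie at a ribosomal RNA repeat on chromosome 17, beside the annotated rRNA row CT010467.1. AY036118 was at 1015 FPKM in the heterozygous library and 523 FPKM in the null library, Gm42418 at 305 and 158 FPKM and Gm26917 at 253 and 109 FPKM. The files call the first and the second of these Yam1, and they were told apart by identifier. All 3 were lower by 1.93- to 2.33-fold. All of the sequence of AY036118 occurs in Gm42418, and CT010467.1, which shares sequence with Gm42418, was at 1680 and 923 FPKM. How much ribosomal RNA passed the poly(A) selection in each library was not tested. Lars2, the gene of the mitochondrial leucyl-tRNA synthetase, whose transcript includes an rRNA-like repeat, was at 331 and 127 FPKM. The 3 rows made up 30.6% of the summed FPKM of the members in the heterozygous library and 21.6% in the null library. Without them the sums were 3568 and 2874 FPKM, or 0.602% and 0.444% of the protein-coding sum, and 109 of 149 rows were lower with a median of -0.23.

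The lower rows with no described role included several of moderate level. Gm19705 (chr1:136670769-136690804) was at 20.1 FPKM in the heterozygous library and 8.93 FPKM in the null library, 2.25-fold lower, and its nearest coding gene Zfp281 at 61.7 and 38.3 FPKM. A630023P12Rik (chr5:110514923-110525980), which shared no 31-base word with another gene, was at 42.3 and 23.8 FPKM, 1.78-fold lower. A430046D13Rik was at 3.00 and 1.09 FPKM, and it passed the 2 FPKM threshold only through the heterozygous library, where it was higher. Its divergent neighbour Myl6b was at 1.51 and 1.77 FPKM.

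Gm16907 was at 17.8 and 10.1 FPKM (counting interval of the fold 1.63 to 1.92) and 2610035D17Rik at 14.6 and 8.42 FPKM. Lower rows at smaller levels were BC043934 (3.90 and 2.08 FPKM), D730003I15Rik (3.64 and 1.97 FPKM) and Gm15706 (3.99 and 2.16 FPKM). Of these, D730003I15Rik passed the 2 FPKM threshold only through the heterozygous library. 2310015A10Rik (6.799 and 4.12 FPKM) lies near Zfp36l1. Gm37494 (6.49 and 3.54 FPKM) and Gm37387 (4.77 and 2.56 FPKM) are retired identifiers with no position in M21. Gm29562, at 220 and 125 FPKM, shares 87.2% of its sequence with other genes, and the share of its value that comes from its own locus was not tested. Together with the rows named above and in the next paragraphs these make up the 25 that were at least 1.5-fold lower.

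Of the 8 rows at least 1.5-fold higher, 5 had no coding-exon base. 2810429I04Rik, on chromosome 13, was at 0.987 FPKM in the heterozygous library and 3.22 FPKM in the null library, a 3.26-fold ratio between low values in a row that passed the threshold only through the null library. Gm28942 was at 2.55 and 6.19 FPKM (2.43-fold) and 4933404O12Rik at 2.56 and 5.38 FPKM (2.10-fold). Gm14230, which starts beside Tgif2 in the opposite direction, was at 4.68 and 7.85 FPKM, and Tgif2 at 6.95 and 8.03 FPKM. Gm19585 was at 4.81 and 7.88 FPKM. Each of these 5 reached at most 7.88 FPKM in either library, and none of their nearest coding genes differed by 1.5-fold.

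The other 3 higher rows overlap coding exons. Gm28592 lies on Phlda1 with 98.1% of its exon bases in coding-gene exons and was at 13.05 and 20.2 FPKM, beside Phlda1 at 5.71 and 9.17 FPKM. Gm26694, which shares 94.5% of its sequence with other genes and most with Metrn, was at 7.31 and 12.5 FPKM, beside Metrn at 1.54 and 2.49 FPKM. Gm26765 overlaps Tmpo, the gene of the lamina protein LAP2, and was at 9.10 and 15.2 FPKM, beside Tmpo at 59.7 and 94.0 FPKM. In each pair the coding gene was higher in the same library. Short of 1.5-fold on the log2 scale were Gm17300 (11.97 and 17.9 FPKM), which overlaps Rcc1, a regulator of the Ran GTPase at 53.8 and 98.9 FPKM, and Gm26880 (9.65 and 14.2 FPKM).

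Among the 15 most abundant rows, several consist almost wholly of sequence found in other genes. WI1-49P9.2, of whose words 93.2% occur elsewhere, was at 69.2 FPKM in the heterozygous library and 98.3 FPKM in the null library. RP24-230J14.4, with 100% of its words found elsewhere, was at 136 and 159 FPKM, and this direction reversed at a sum of 1000000 FPKM (log2 ratio -0.06). Gm26669, which shares 90.8% of its words with Zfp36l1, was at 120 and 91.5 FPKM beside that gene at 103 and 93.4 FPKM.

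Rows made mostly of shared sequence were set beside the coding gene they share it with. In 24 of the 45 such rows the gene sharing most was protein-coding. The 22 of these whose coding partner had a mean of at least 2 FPKM had log2 ratios that correlated with those of the partner (Pearson's r 0.78, Spearman's rho 0.67 across pairs), a description, since both values of a pair can count the same fragments. In 9 of the 22 both ratios lay within 0.1 of each other. Gm17552 was at 8.02 and 3.72 FPKM beside Carns1 at 13.8 and 7.33 FPKM, and Gm26649 at 4.84 and 2.95 FPKM beside Klf7 at 5.96 and 3.66 FPKM. Gm26718 was at 18.97 and 23.9 FPKM beside Pgam5 at 17.8 and 22.01 FPKM. Gm26699 stood apart, at 13.5 and 16.2 FPKM beside Luc7l2 at 145 and 111 FPKM.

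Rows of mostly own sequence were set beside their nearest coding gene. Over the 57 such rows without coding-exon bases whose nearest coding gene had a mean of at least 2 FPKM, r was 0.18 and rho 0.17, and the lincRNA had the lower log2 ratio in 42 pairs. The 101 distinct coding neighbours of that level had a median log2 ratio of 0.08, which turned negative (-0.05 to -0.21) under 3 of the other scalings. Whether the correlations of the shared and own rows differ was not tested.

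**Figure D5:**
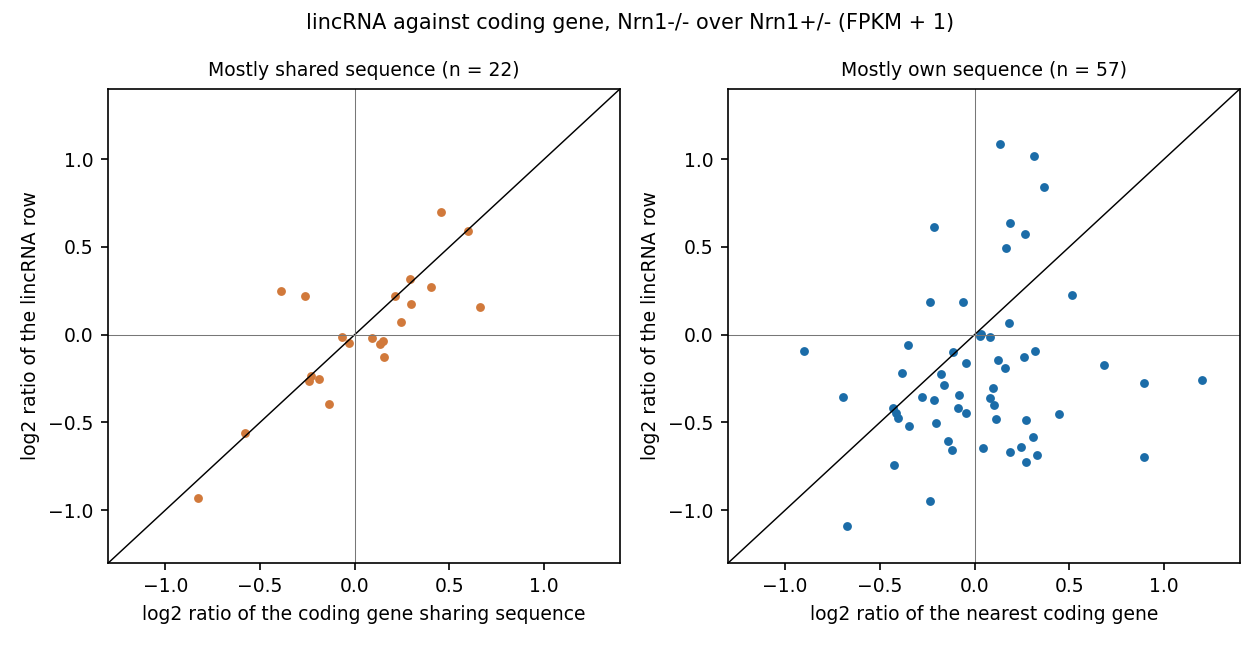
Log2 ratio (Nrn1-/- over Nrn1+/-, FPKM + 1) of lincRNA rows (y axes) against that of the coding gene sharing most sequence for 22 rows of mostly shared sequence (left, x axis) and of the nearest coding gene for 57 rows of mostly own sequence (right, x axis); each point is 1 pair and the diagonal marks equal ratios. Points on the left follow the diagonal with an r of 0.78, Gm26699 lying above it, while 42 of the 57 on the right lie below it.

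Divergent pairs, in which a lincRNA and a coding gene start close together and run apart, can share a promoter region. In 21 rows the start lay within 1000 bases of that of a coding gene on the opposite strand. Of them 15 (71.4%) were lower, near the 73.7% of all 152 members, where 46.4% of all rows were. Their median was -0.40, and over the 19 with a measured partner of at least 2 FPKM the correlation was 0.13. 9330175E14Rik was at 23.8 and 15.8 FPKM beside Nlrc5, the transactivator of class I antigen-presentation genes, at 137 and 98.1 FPKM. 5031425E22Rik was at 15.4 and 10.8 FPKM beside Kmt2e at 33.6 and 25.1 FPKM. In both of these pairs lincRNA and coding gene were lower together.

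Other divergent pairs parted. Cep83os was at 3.56 and 2.33 FPKM while Cep83 was at 13.7 and 18.95 FPKM. 6230400D17Rik, which passed the 2 FPKM threshold only through the heterozygous library, was at 3.13 and 1.78 FPKM. Its partner Chchd1, a mitochondrial protein gene, was at 69.6 and 88.2 FPKM. Gm26799 was at 4.83 and 3.16 FPKM while Rad18, a ubiquitin ligase of DNA damage tolerance, was at 18.1 and 22.1 FPKM. In these 3 pairs the lincRNA was lower and the coding gene higher in the null library, except that Rad18 was lower at a sum of 1000000 FPKM (log2 ratio -0.01).

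By position, the 51 rows overlapping a coding gene body had a median of -0.05, the 48 rows within 10000 bases of one -0.35 and the 48 rows farther away -0.25. The 16 single-exon rows had a median of -0.44, with 14 (87.5%) lower. The 131 spliced rows had one of -0.20, with 71.8% lower. Of all 152 members 73.7% and of all rows 46.4% were lower. The single-exon rows include the ribosomal RNA repeat rows AY036118 and Gm42418, and Gm29562 and RP23-371A16.3, which consist mostly of shared sequence. Their median without such rows was not computed. Some rows share sequence with each other and are not independent. AI480526 (21.7 and 14.2 FPKM), RP23-371A16.3 (8.92 and 4.97 FPKM) and Gm38102 (14.8 and 8.58 FPKM) share sequence and lie on chromosome 5, and all were lower. Gm26809 (172 and 139 FPKM), RP23-148L8.3 (118 and 87.3 FPKM), Gm12840 (80.5 and 70.3 FPKM) and Gm29408 (17.5 and 14.4 FPKM) also share sequence, lie on chromosomes 4, 6 and 9 and were all lower by less than 1.5-fold. In 14 members the gene sharing most sequence was another member.

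Counting error could be estimated for part of the rows. For 63 rows with 1 annotated transcript the fragments behind a value could be estimated from the spacing of low FPKM values. They ranged from 57 to 37559 (median 557) in the heterozygous library and from 44 to 15380 (median 400) in the null library. The exact 95% binomial interval of the FPKM ratio lay below 1 in 29 rows, above 1 in 14 and included 1 in 20. Except for WI1-49P9.2 and Gm26880, the rows above 1 had coding-exon bases, from 1.24% of exon bases in Gm17300 to 100% in Gm26718. WI1-49P9.2 and Gm26880 shared 93.2% and 66.3% of their words with other genes. No interval was available for 2810429I04Rik, Gm28942, 4933404O12Rik, Gm14230 and Gm19585, the rows at least 1.5-fold higher with no coding-exon base. These intervals cover counting error only and say nothing of the spread between mice, and reads lack molecular identifiers, so fragments can be copies of 1 molecule.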

How the data were processed

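The deposited values are FPKM per gene, computed by the authors; per the submitters' processing notes, FastQC, TopHat, Cuffdiff and Cuffnorm were used on mm10 (GRCm38), with no versions or roles. Not given in the sources used here: annotation, filters, scaling of the libraries to each other. Sums over all rows were 645876 (Nrn1+/-) and 790935 FPKM (Nrn1-/-), and over protein-coding rows 593035 and 647545 FPKM. In genes with 1 transcript, low values times transcript length fell within 0.1 of whole multiples of 0.019 (94.2% of 1770 genes, Nrn1+/-) and 0.0251 FPKM times kilobase (94.6% of 1766, Nrn1-/-). For 1 step fixed in advance chance gives 20%. These steps were the best of a search over the same genes, and the share that chance gives for a best step was not computed. From these steps fragments were estimated, covering counting error only. This search was tested on simulated data, after which its selection of the step was changed once.

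Groups come from the genotype labels. Ratios use a pseudocount of 1 FPKM. With 1 library per genotype there was no test, and counts and medians stand beside those of all rows. Positions, neighbours and the 31-base words come from GENCODE M21 (GRCm38), matched by identifier without version (46000 of 46511 rows). The members and lists were chosen with earlier results of these data known. Named are Nrn1, the 15 highest members, the 12 largest ratios each way, list members, rows at the threshold, hosts of small RNAs and their neighbours (47 members); the further members given were chosen after their values were seen. Promoter motifs were also looked at and none is reported. Alternatives changed the pseudocount, scaling, level filter, transcript length and rows kept. Python 3.11.15, pandas 2.3.3, numpy 2.4.6, scipy 1.17.1 and matplotlib 3.10.9 were used.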

Additional observations from a re-analysis of the deposited data

How the results depend on the processing

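No paired analysis was possible because each genotype has 1 library and the labels give no replicate numbers; no library could be left out. None of the 33 members at least 1.5-fold apart changed direction under the 7 pseudocounts, scalings and centrings tried. Of the 47 named members 5 turned from higher to lower at a sum of 1000000 (AI662270, Dancr, Ftx, Gm26530 and RP24-230J14.4) and Dancr also with upper-quartile scaling and equal protein-coding sums; over all 152 this was 22, 7 and 7, and 2 after centring. None turned from lower to higher, and 143 of the 329 values of named members moved by more than 0.1. The median of the lincRNAs, -0.24, went to -0.50 at a sum of 1000000 and to -0.034 with no filter on low values, over 1172 rows. The median of the coding neighbours, 0.08, went to -0.050 with upper-quartile scaling, -0.21 at a sum of 1000000 and -0.047 with equal protein-coding sums.

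The count at least 1.5-fold lower, 25, went to 39 with upper-quartile scaling, 63 at a sum of 1000000, 39 with equal protein-coding sums and 40 with no filter; the share of all rows, 5.1%, went to 8.59%, 17.3% and 8.44% under these scalings. The count 1.5-fold higher, 8, went to 5 with a pseudocount of 2, to 3, 3 and 3 under these scalings, to 5 from a mean of 5 FPKM, to 16 with no filter and to 5 without rows in coding exons. The 2 at 2-fold lower became 5 and 4 with pseudocounts of 0.1 and 0.5, 7, 16 and 7 under the scalings, 5 from a mean of 1 FPKM, 6 with no filter and 1 without the ribosomal RNA repeat rows. The 2 at 2-fold higher became 0 with a pseudocount of 2, 0, 1 and 0 under the scalings, 1 after centring, 0 from a mean of 5 FPKM and 1 with transcripts of at least 500 bases. The cause of these moves was not tested beyond what each setting's own construction does. Counts at 2-fold rest on few rows, and the unknown scaling between libraries limits every direction near equality. The filters on shared sequence, coding exons, repeat rows and M21 type were chosen after seeing the data.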

Other observations

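Among other noncoding gene types of at least 2 FPKM, some were also more often lower than higher in the Nrn1-/- library and others were not. Of 181 antisense rows 109 were lower (median log2 ratio -0.11), of 102 processed-transcript rows 60 (median -0.09) and of 70 rows awaiting experimental support (type TEC) 46 (median -0.28). The lincRNA median was -0.24 and the protein-coding median 0.04; no difference between types was tested. Of 243 processed pseudogenes 123 were lower. Rows of short RNAs had a wide spread, with 40.9% of snoRNA rows and 47.5% of miRNA rows lower, against 46.4% of all rows. Of 93 snoRNA rows 55 were higher (median 0.39, quartiles -2.84 and 2.01) and of 61 miRNA rows 32 (median 0.44, quartiles -3.26 and 3.70).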
